A study of Mus musculus with 6 samples.

Results

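The genes of the major histocompatibility complex (MHC) and of antigen presentation were taken as every row of the gene table whose symbol starts with H2-, the prefix of the mouse MHC, together with B2m, Cd74, Ciita, Nlrc5, Tap1, Tap2, Tapbp, Tapbpl, Erap1 and Cd1d1. This gave 40 of the 17556 genes in the table, 30 of them with an H2- symbol. They comprised 22 class I genes, 10 class II genes, 5 genes for loading and trimming class I peptides, 2 regulators (Ciita and Nlrc5) and H2-Ke6, which lies in the region but encodes a hydroxysteroid dehydrogenase and no MHC chain. These genes are called members below. A filter on low counts left 32 of the 40 for testing, against 13817 of all genes. RNA was sequenced in bulk from whole left ventricles of 3 mice with Yap fl/fl, Wwtr1 fl/+ and the Postn MCM allele (Cre positive) and of 3 siblings with Yap fl/fl, Wwtr1 fl/+ and wild-type Postn (Cre negative). In both groups the floxed alleles were present, the left anterior descending artery was permanently ligated, tamoxifen citrate was fed from the end of surgery, and tissue was taken at 4 days post injury (dpi) from mice aged 6 to 10 weeks. The groups differ in the MerCreMer recombinase placed at the endogenous Postn (periostin) locus. It is active in myofibroblasts, so Yap and 1 allele of Wwtr1 are removed from a fraction of the cells in the tissue. No uninjured or untreated ventricle and no group with the Postn MCM allele alone was analysed here. Loss of Yap and 1 allele of Wwtr1 in myofibroblasts therefore cannot be told apart from the Postn MCM allele itself. The comparison asks only how both together go with antigen presentation transcripts in the infarcted ventricle.

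Class I molecules are found on nearly all nucleated cells and pair a heavy chain (H2-K1, H2-D1 or a class Ib chain) with beta-2 microglobulin (B2m). Their peptides come from the proteasome, enter the endoplasmic reticulum through the transporter Tap1/Tap2, are trimmed by Erap1 and are fitted by tapasin (Tapbp) and its relative Tapbpl. Class II molecules are made mainly by dendritic cells, B cells and activated macrophages. Their alpha and beta chains assemble on the invariant chain (Cd74), and H2-DM exchanges the invariant chain remnant for peptide in endosomes while H2-O, found chiefly in B cells, holds H2-DM back. Nlrc5 and Ciita are the transactivators of class I and class II genes, and interferons raise both. After infarction, macrophages, dendritic cells and lymphocytes enter the ventricle, so these transcripts in whole tissue reflect infiltrating as well as resident cells.

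Libraries held 13177888 to 14827579 estimated counts, and 3 counts corresponded to 0.202 to 0.228 CPM (counts scaled to a library total). Counts below are normalized to the mean library size of 14264187. Yap1 had 1547, 1473 and 1419 normalized counts in Cre-negative ventricles 1 to 3 and 1615, 1436 and 1474 in Cre-positive ventricles 1 to 3. Wwtr1 had 1616, 1463 and 1604 against 1614, 1559 and 1661. Neither was lower in the Cre-positive group, but gene totals from whole ventricle include cells without recombinase and exons outside the floxed part, so they do not check the labels. Postn had 12157, 24639 and 26862 against 12682, 14240 and 13486 (log2 fold change -0.66, SE 0.27, adjusted p = 0.714 in the edgeR quasi-likelihood test), and it passed an adjusted p of 0.05 without Cre-negative ventricle 1. By that test 1 of 13817 genes, or 0.00724%, passed an adjusted p of 0.05. This was Gbp2b, an interferon-inducible GTPase that is no member, with 0, 3 and 1 counts against 174, 158 and 136. Its call was lost with the replicate number as a block and without Cre-negative ventricle 3 or any one of the 3 Cre-positive ventricles. Cre-negative ventricle 1 stood apart. Its 7 cardiomyocyte markers summed to 55322 TPM (reads corrected for gene length and scaled to one total per library) against 46578 and 46891 in the other Cre-negative and 42105 to 45048 in the Cre-positive ventricles. Its 12 macrophage markers summed to 2257 TPM against 3364 and 3457 in the other Cre-negative and 2834 to 3241 in the Cre-positive ventricles. Its 6 fibroblast markers summed to 3392 TPM against 4699 and 5245 in the other Cre-negative and 5263 to 6132 in the Cre-positive ventricles. In normalized counts 4 of these 6 were lowest there, but Dcn was highest. Its 6 neutrophil markers summed to 415 TPM against 48.4 to 156. Of the 5 tested, 4 were highest there, but Csf3r was lowest. In TPM the summed cardiomyocyte and fibroblast markers also did not overlap by genotype, the fibroblast sums by a narrow margin. In normalized counts the largest fibroblast marker, Col1a1, did overlap, with 125454 in Cre-negative ventricle 2 and 117785 in Cre-positive ventricle 2. All 7 cardiomyocyte markers had fold changes below 0, 3 of them without overlap and 1 with an unadjusted p below 0.05 in edgeR. Of the 6 fibroblast markers 5 had fold changes above 0, with 0 in either count. Over all genes tested, 51.2% were above 0, 6.85% lower and 7.55% higher without overlap, and 5.83% passed the unadjusted threshold. The part of these marker differences in the fold changes of the members was not tested. Of the 7 cardiomyocyte markers, 6 were highest in Cre-negative ventricle 1. Of all genes tested, 30.8% were highest and 32.1% lowest in that ventricle. In whole tissue, fewer cells of a type and less RNA per cell cannot be told apart. The labels number the replicates but do not tie them to litters or preparation days, so p-values measure only the spread between these 6 libraries.

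Promoters of many MHC genes are known to hold short sequences bound by transcription factors, and those of genes that lead the results are printed here so that class I and class II can be set side by side. RefSeq promoters (GRCm38.p6; 250 bases before to 50 after a transcription start) were found for 28 of the 40 genes. Of the class I promoters, 3 held GGGGATTCC, the letters of an NF-kB site, and these were H2-K1, H2-D1 and H2-Q7. It occurred in 0.250% of all 32851 promoters on either strand. TTTCACTT, as in interferon response elements, began 21 bases after the start of that site in H2-K1 and H2-D1 and 20 bases after it in H2-Q7, and it occurred in 1.60% of all promoters. The class I stretches below end at or before the annotated start, which for H2-K1 is the downstream of its 2 starts in RefSeq, and lie at chr17:34000334-34000464, minus strand, chr17:35262917-35263073, plus strand, chr17:35439016-35439154, plus strand, chr17:35379458-35379596, plus strand, and chr17:36032722-36032831, minus strand. Each is written 5′ to 3′ along its gene, with GGGGATTCC, TTTCACTT, ATGATGC and TGATTGG or its reverse complement CCAATCA in capitals.
H2-K1: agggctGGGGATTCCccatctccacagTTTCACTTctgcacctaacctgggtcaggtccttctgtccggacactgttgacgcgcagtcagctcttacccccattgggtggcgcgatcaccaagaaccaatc
H2-D1: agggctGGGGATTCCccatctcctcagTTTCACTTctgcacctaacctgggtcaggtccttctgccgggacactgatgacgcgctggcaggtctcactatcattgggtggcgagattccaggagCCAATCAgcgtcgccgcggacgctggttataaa
H2-Q7: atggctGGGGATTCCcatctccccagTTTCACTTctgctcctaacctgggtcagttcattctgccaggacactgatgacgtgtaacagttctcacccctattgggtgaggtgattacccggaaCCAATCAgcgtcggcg
H2-Q4: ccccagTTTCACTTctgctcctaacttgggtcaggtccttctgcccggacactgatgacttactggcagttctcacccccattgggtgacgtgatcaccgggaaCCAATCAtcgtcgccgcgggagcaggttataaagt
H2-T23: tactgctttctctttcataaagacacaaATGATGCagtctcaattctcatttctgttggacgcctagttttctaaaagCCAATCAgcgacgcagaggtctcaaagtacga

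TGATTGG holds the inverted CCAAT of the Y box, which is bound by NF-Y, and ATGATGC is the core of the X2 element in several class II genes. These letters were chosen after the promoters had been read. On either strand TGATTGG occurred in 7 of 8 class II promoters, in 10 of 16 class I promoters and in 7.82% of all promoters. H2-D1, H2-Q7, H2-Q4 and H2-T23 hold it as CCAATCA, the reverse orientation, and in H2-K1 the same letters run across the downstream start, beyond the stretch printed, and lie after the upstream start. ATGATGC was found in 4 class II promoters (H2-DMb1, H2-DMb2, H2-Eb1 and H2-Ob), in 2 class I promoters (H2-T23 and H2-T-ps) and in 2.46% of all promoters. In the class II promoters it began 24 bases before TGATTGG in H2-DMb1 and H2-DMb2, 23 bases before it in H2-Eb1 and 21 bases before it in H2-Ob. The class II stretches lie at chr17:34287861-34287918, minus strand, chr17:34305758-34305818, plus strand, chr17:34153079-34153140, plus strand, chr17:34145108-34145169, plus strand, chr17:34092289-34092346, plus strand, and chr17:34238800-34238858, plus strand, with ATGATGC and TGATTGG in capitals. No printed match overlaps another, and a match is a description of the letters, not a measured site.
H2-Aa: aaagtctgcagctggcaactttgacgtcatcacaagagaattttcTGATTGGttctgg
H2-Eb1: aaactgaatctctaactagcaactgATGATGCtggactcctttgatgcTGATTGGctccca
H2-DMb1: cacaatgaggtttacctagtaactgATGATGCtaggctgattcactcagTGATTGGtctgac
H2-DMb2: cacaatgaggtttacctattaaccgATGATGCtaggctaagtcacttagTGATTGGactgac
H2-Oa: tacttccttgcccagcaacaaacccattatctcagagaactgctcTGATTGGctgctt
H2-Ob: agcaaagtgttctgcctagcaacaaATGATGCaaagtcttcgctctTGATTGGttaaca

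Class I transcripts were abundant in every ventricle and did not separate by genotype. On the length-corrected TPM scale the mean over 6 ventricles was 1540 for B2m, 686 for H2-D1 and 409 for H2-K1, followed by the class Ib genes H2-T23 (92.6), H2-Q4 (72.3) and H2-T22 (68.0). The 22 class I genes together made up 2183, 3598 and 2649 TPM in the Cre-negative and 3005, 3048 and 3204 TPM in the Cre-positive ventricles. None of the 15 class I genes tested passed an adjusted p of 0.05 in edgeR, 0 passed an unadjusted p of 0.05 and in 0 did the groups not overlap. Over all genes tested 5.83% passed the unadjusted threshold, 7.55% were higher and 6.85% lower without overlap, so counts of 0 among 15 genes do not set class I apart. Their log2 fold changes ran from -0.34 to 0.16, with 8 above and 7 below 0 and a median of 0.01, beside 0.01 over all genes tested. The class I median was -0.099 without Cre-negative ventricle 3 and 0.24 without Cre-negative ventricle 2.

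B2m had 7698, 11132 and 8377 normalized counts in the Cre-negative and 9604, 9181 and 9600 in the Cre-positive ventricles. Cre-negative ventricle 2 was the highest and ventricle 1 the lowest of the 6, and the Cre-positive ventricles lay between them. The log2 fold change was 0.06 (SE 0.15, 95% interval -0.29 to 0.41, edgeR adjusted p = 0.911), which allows a change between 0.82-fold and 1.33-fold. H2-K1 (chr17:33996012-34000619) had 4285, 6436 and 4429 against 5170, 4627 and 5218, and H2-D1 (chr17:35263094-35267497) had 7416, 11079 and 8396 against 8751, 8194 and 9324. These classical heavy chains showed the same order at the extremes as B2m, with log2 fold changes of -0.01 (95% interval -0.40 to 0.37) and -0.03 (-0.40 to 0.33). Without Cre-negative ventricle 1 their values were -0.12 and -0.16, and without Cre-negative ventricle 2 they were 0.20 and 0.15, so their sign rests on single ventricles. The spread was narrow in the Cre-positive group: B2m was 9461 ± 243 there and 9069 ± 1819 in the Cre-negative group (SD, n = 3 each).

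**Figure D1:**
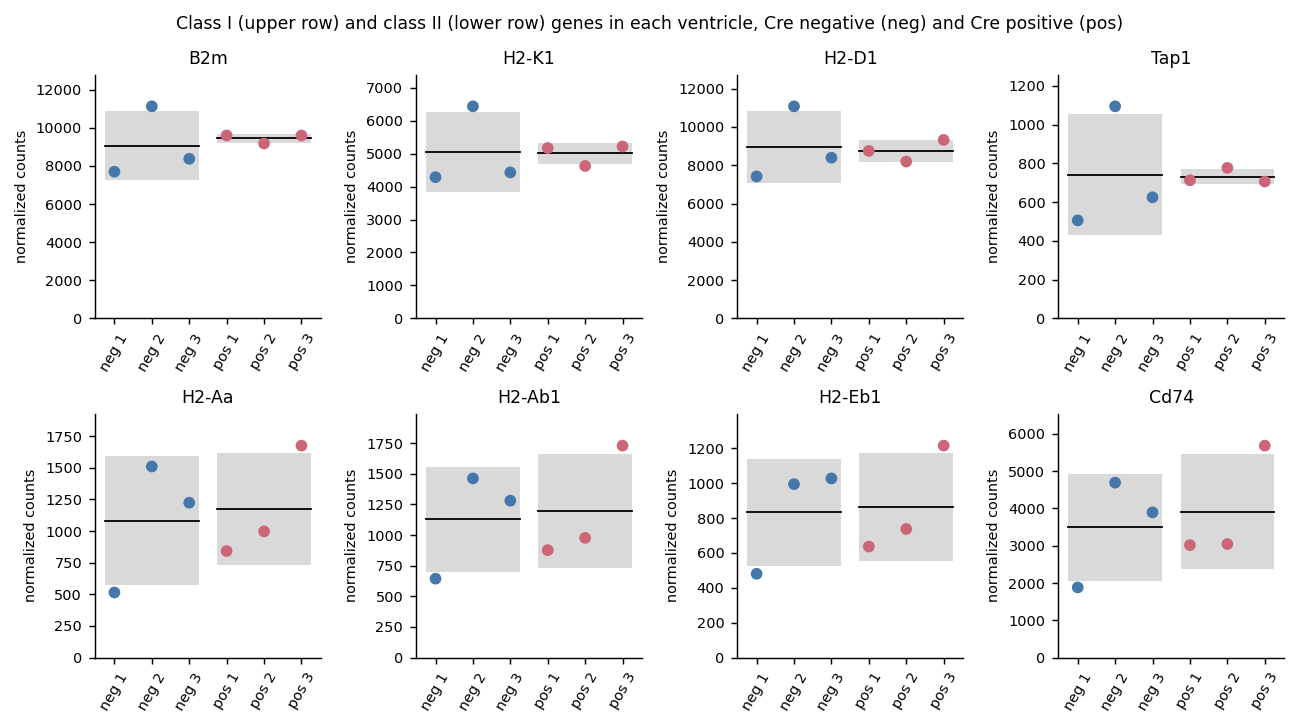
Normalized counts (y axis) of 4 class I or class I loading genes (upper row) and 4 class II genes (lower row) in each of the 6 ventricles (x axis), Cre negative in blue and Cre positive in red, with the group mean (line) and mean ± SD (grey, n = 3). In the upper row Cre-negative ventricle 2 is the highest and ventricle 1 the lowest, and in the lower row Cre-positive ventricle 3 is the highest.

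The classical chains kept nearly fixed proportions although their levels moved. H2-D1 exceeded H2-K1 in TPM by 1.61 to 1.80 times in the 6 ventricles. B2m exceeded the sum of H2-K1 and H2-D1 by 1.38, 1.34 and 1.38 times in the Cre-negative and 1.45, 1.51 and 1.39 times in the Cre-positive ventricles. These groups did not overlap, by a narrow margin. The ratio was one of 10 computed and was singled out after its values were seen, and 3 against 3 ventricles cannot give an exact two-sided p below 0.1.

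Among the class Ib genes, whose products present to innate-like T cells or bind receptors of natural killer cells, H2-T23 encodes Qa-1. It had 771, 1131 and 763 normalized counts in the Cre-negative and 897, 840 and 952 in the Cre-positive ventricles. H2-Q4 had 758, 1225 and 821 against 1071, 893 and 1024, and H2-T22 had 775, 1159.5 and 716 against 870, 834 and 829. All 3 were highest in Cre-negative ventricle 2, and the Cre-positive values fell inside the Cre-negative range. Their log2 fold changes were 0.01, 0.09 and -0.07 (edgeR adjusted p = 0.988, 0.890 and 0.920). Without Cre-negative ventricle 2 these values were 0.22, 0.34 and 0.18, and without Cre-negative ventricle 3 they were -0.087, 0.0044 and -0.20. Of the 15 class I genes tested, 11 were highest in Cre-negative ventricle 2 and 9 were lowest in Cre-negative ventricle 1. Over all genes tested, 12.2% were highest in Cre-negative ventricle 2. The other class Ib genes tested had log2 fold changes of -0.34 to 0.16. The 7 class I genes that did not pass the filter (H2-Q1, H2-M5, H2-M9, H2-M2, H2-M1, H2-Q2 and H2-M11) had at most 6 counts in any ventricle.

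**Figure D2:**
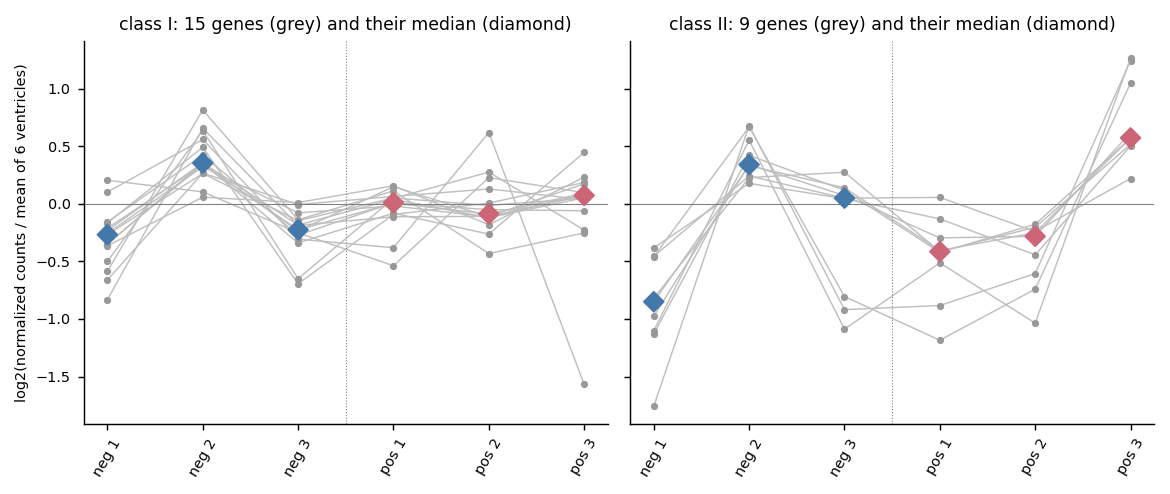
Log2 ratio of each gene's normalized counts to its mean over 6 ventricles (y axis) in each ventricle (x axis) for the 15 class I genes (left) and 9 class II genes (right) tested. Grey lines are genes and diamonds their median, which ran from -0.27 to 0.36 for class I and from -0.85 to 0.57 for class II. Cre-negative ventricle 2 leads class I, and Cre-positive ventricle 3 leads class II.

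H2-Q7, H2-Q8 and H2-Q9 are near-identical copies, so the estimated counts share reads between them, and their values were fractional in all 6 libraries. H2-Q9, named after its values were seen, had 52.9, 72.6 and 39.8 normalized counts in the Cre-negative and 37.8, 75.7 and 16.6 in the Cre-positive ventricles. Its part of the TPM of the 3 genes ran from 3.17% in Cre-positive ventricle 3 to 17.4% in Cre-positive ventricle 2, a wide range within 1 genotype. The sum of the 3 genes was 308, 559 and 321 against 374, 350 and 426. It spanned 1.82-fold, against 1.74-fold for H2-Q7, 2.64-fold for H2-Q8 and 4.56-fold for H2-Q9, and its Cre-positive values fell within the Cre-negative range. Single levels of these copies are uncertain.

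Of the 5 peptide-loading genes, 0 passed an unadjusted p of 0.05 in edgeR, against 5.83% of all genes tested. Cre-negative ventricle 2 was the highest for 3 of them, against 12.2% of all genes tested. Tapbp, the tapasin gene, had 2772, 3488 and 2682 normalized counts in the Cre-negative and 3181, 3024 and 3203 in the Cre-positive ventricles (log2 fold change 0.07, SE 0.12). Without Cre-negative ventricle 1, 2 or 3 its log2 fold change was 0.02, 0.20 and 0.0024. Tap1, 1 chain of the peptide transporter, was named after its values were seen. It had 505, 1094 and 624 against 713, 776 and 706 and spanned 2.16-fold, more than its partner Tap2 with 1.30-fold, so that the Tap1 to Tap2 ratio in TPM ran from 0.515 in Cre-negative ventricle 1 to 1.03 in Cre-negative ventricle 2. Without Cre-negative ventricle 2 the Tap1 log2 fold change was 0.37, against -0.02 with all ventricles. Erap1, the trimming peptidase, had 536, 556 and 557 against 570.2, 649 and 599, and every Cre-positive ventricle was above every Cre-negative one. It was the only member higher without overlap, against 7.55% of all genes tested. Its log2 fold change was 0.14 (SE 0.08, 95% interval -0.06 to 0.34, edgeR adjusted p = 0.714), and it was 0.09 without Cre-positive ventricle 2. Tapbpl and Tap2 had values of 0.14 and -0.10.

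The class I regulator Nlrc5 had 129, 214 and 143 normalized counts in the Cre-negative and 190.1, 211 and 191 in the Cre-positive ventricles. As with B2m, H2-K1 and H2-D1, though not with every class I gene, Cre-negative ventricle 2 was the highest and ventricle 1 the lowest. The log2 fold change was 0.28 (SE 0.20, 95% interval -0.18 to 0.75, edgeR adjusted p = 0.721), and it was 0.54 without Cre-negative ventricle 2 and 0.15 without Cre-negative ventricle 1.

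Interferon response genes had the same ventricle at their top. The 12 measured genes of the type I interferon list summed to 481, 978 and 447 TPM in the Cre-negative and 737, 832 and 674 TPM in the Cre-positive ventricles, and the 18 genes of the interferon gamma list to 543, 742 and 562 against 660.4, 709 and 665. Cre-negative ventricle 2 was the highest in both lists, as it was for B2m, H2-K1 and H2-D1. Irf7, a factor that amplifies the interferon response and was named after its values were seen, had 1064, 2148 and 750 normalized counts against 1531, 1482 and 1351. The part of these genes in the class I values was not tested. By genotype, 11 of 12 type I genes had a fold change above 0 with a median of 0.14, and 13 of 17 interferon gamma genes tested with a median of 0.11, against 51.2% of all genes tested. These genes share extreme ventricles: 11 of the 12 type I genes were highest in Cre-negative ventricle 2 and 10 lowest in Cre-negative ventricle 3, as were 12 and 10 of the 17 interferon gamma genes. Jak1 and Jak2, kinases of the interferon receptors, were higher without overlap, 2 of the 17 interferon gamma genes against 7.55% of all genes tested. None of either list passed an unadjusted p of 0.05 in edgeR, against 5.83% of all genes tested. The largest values were 0.23 for Ifit2 and 0.37 for Cxcl9.

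Class II transcripts varied more between ventricles than class I, and again did not separate by genotype. In TPM the mean over 6 ventricles was 407 for Cd74, 148 for H2-Aa, 135 for H2-Ab1 and 69.0 for H2-Eb1. The loading genes were lower, with 28.2 for H2-DMb1, 18.2 for H2-DMa, 6.29 for H2-DMb2, 3.23 for H2-Oa and 2.39 for H2-Ob. The 10 class II genes together made up 379, 1018 and 862 TPM in the Cre-negative and 640, 728 and 1280 TPM in the Cre-positive ventricles. Of the 9 tested, 0 passed an adjusted or unadjusted p of 0.05 in edgeR and in 0 did the groups not overlap, against 5.83% of all genes tested for the unadjusted threshold and 7.55% higher and 6.85% lower without overlap. All 9 log2 fold changes were above 0, from 0.05 to 0.57 with a median of 0.10, against 51.2% above 0 over all genes tested. Most of these genes share the same extreme ventricles, and without Cre-positive ventricle 3 the median was -0.28, while without Cre-negative ventricle 2 it was 0.43.

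H2-Aa (chr17:34282744-34287823), an alpha chain, had 515, 1510 and 1224 normalized counts in the Cre-negative and 842, 997 and 1674 in the Cre-positive ventricles. H2-Ab1 (chr17:34263227-34269418), its beta chain, had 644, 1462 and 1280 against 877, 977 and 1729. H2-Eb1 (chr17:34305867-34316674), the beta chain of the other class II pair, had 481, 995 and 1027 against 637, 737 and 1215. In all 3 genes Cre-negative ventricle 1 was the lowest and Cre-positive ventricle 3 the highest, so the groups overlapped, while Cre-negative ventricles 2 and 3 were above Cre-positive ventricles 1 and 2. Cd74 followed with 1883, 4691 and 3894 against 3017, 3046 and 5684. Its log2 fold change was 0.17 (SE 0.37, 95% interval -0.68 to 1.01, edgeR adjusted p = 0.899), so changes between 0.62-fold and 2.02-fold are within the interval. The values were 0.11 for H2-Aa, 0.08 for H2-Ab1 and 0.05 for H2-Eb1, with standard errors of 0.40, 0.35 and 0.33.

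The class II chains moved together. The H2-Aa to H2-Ab1 ratio in TPM stayed between 0.900 and 1.16, and Cd74 exceeded H2-Aa by 2.55 to 3.08 times, while H2-Aa itself spanned 3.25-fold and Cd74 3.02-fold in normalized counts. The median span between the highest and lowest ventricle was 3.02-fold for class II and 1.70-fold for class I, against 1.43-fold for all genes tested. Of the 9 class II genes, 8 were highest in Cre-positive ventricle 3 and 7 lowest in Cre-negative ventricle 1.

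H2-Oa, H2-Ob, H2-DMb2 and the class II transactivator Ciita were spread the most among the tested members of class II or their regulators. H2-Oa, H2-Ob and H2-DMb2 were named after their values were seen. H2-Oa had 7.05, 38.3 and 12.6 normalized counts in the Cre-negative and 12.9, 15.7 and 56.6 in the Cre-positive ventricles, an 8.03-fold span. H2-Ob had 21.2, 66.7 and 21.4 against 31.8, 22.2 and 109. H2-DMb2 had 24.7, 54.0 and 19.4 against 14.9, 20.3 and 70.3. In all 3 genes Cre-positive ventricle 3 was the highest and Cre-negative ventricle 2 the second highest, with the other ventricles well below. Ciita had 30.6, 87.3 and 54.4 against 44.8, 42.5 and 107, with the same ventricles at its top (log2 fold change 0.17, SE 0.48, edgeR adjusted p = 0.927). The fold changes of H2-Oa and H2-Ob, 0.53 and 0.57, turned to -0.45 and -0.44 without Cre-positive ventricle 3.

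The 5 B cell markers (Cd79a, Cd79b, Ms4a1, Cd22 and Pax5) had the same ventricles at their top. They summed to 14.9, 44.3 and 12.3 TPM in the Cre-negative and 21.7, 10.4 and 63.8 TPM in the Cre-positive ventricles, and none was at 0. All 5 had fold changes above 0 and 0 passed an unadjusted p of 0.05 in edgeR, against 51.2% and 5.83% of all genes tested. Cd79a, a part of the B cell receptor that was named after its values were seen, had 81.1, 227 and 44.7 normalized counts against 102, 22.2 and 287. The H2-O genes together amounted to 5.84%, 15.8% and 5.73% of H2-DMa and H2-DMb1 in TPM against 7.54%, 8.86% and 21.8%. The ventricles at the top were not particular to B cell markers. The 6 T cell markers summed to 2.92, 8.62 and 6.62 TPM against 7.31, 5.09 and 13.3, with the same ventricles highest and second highest. The 8 dendritic cell markers summed to 13.03, 19.5 and 20.3 TPM against 19.4, 23.9 and 24.5, and the 5 natural killer cell markers to 0.58, 3.43 and 2.36 against 3.34, 4.76 and 7.88. Cre-positive ventricle 3 was the highest for both, but Cre-negative ventricle 2 was not second. Cre-negative ventricle 1 was the lowest for dendritic cell and macrophage markers and for the class II chains. The part of each cell type in the class II values was not tested.

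**Figure D3:**
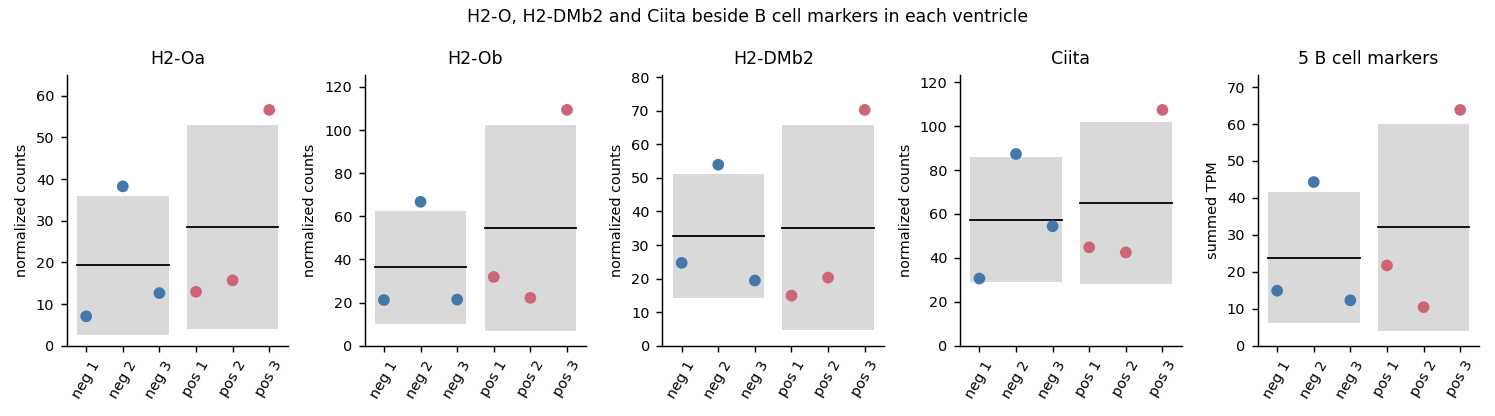
Normalized counts of H2-Oa, H2-Ob, H2-DMb2 and Ciita and summed TPM of 5 B cell markers (y axes) in each ventricle (x axis), with group mean (line) and mean ± SD (grey, n = 3). Cre-positive ventricle 3 and Cre-negative ventricle 2 are the highest and second highest in every panel.

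H2-Ke6 was the only member with an unadjusted p below 0.05 and the only one lower without overlap. It had 534, 543 and 451 normalized counts in the Cre-negative and 379, 354 and 446 in the Cre-positive ventricles. The highest Cre-positive value lay just under the lowest Cre-negative one. In TPM the groups overlapped, with 68.0 in Cre-positive ventricle 3 and 65.3 in Cre-negative ventricle 3. The log2 fold change was -0.37 (SE 0.12, 95% interval -0.66 to -0.09, unadjusted p = 0.0176, adjusted p = 0.714 in edgeR). Of all genes tested, 5.83% passed the unadjusted threshold and 6.85% were lower without overlap, against 1 of 32 members in either count. The unadjusted call was lost without Cre-positive ventricle 1, without Cre-positive ventricle 2 and without Cre-negative ventricle 2, and with limma on TPM.

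**Figure D4:**
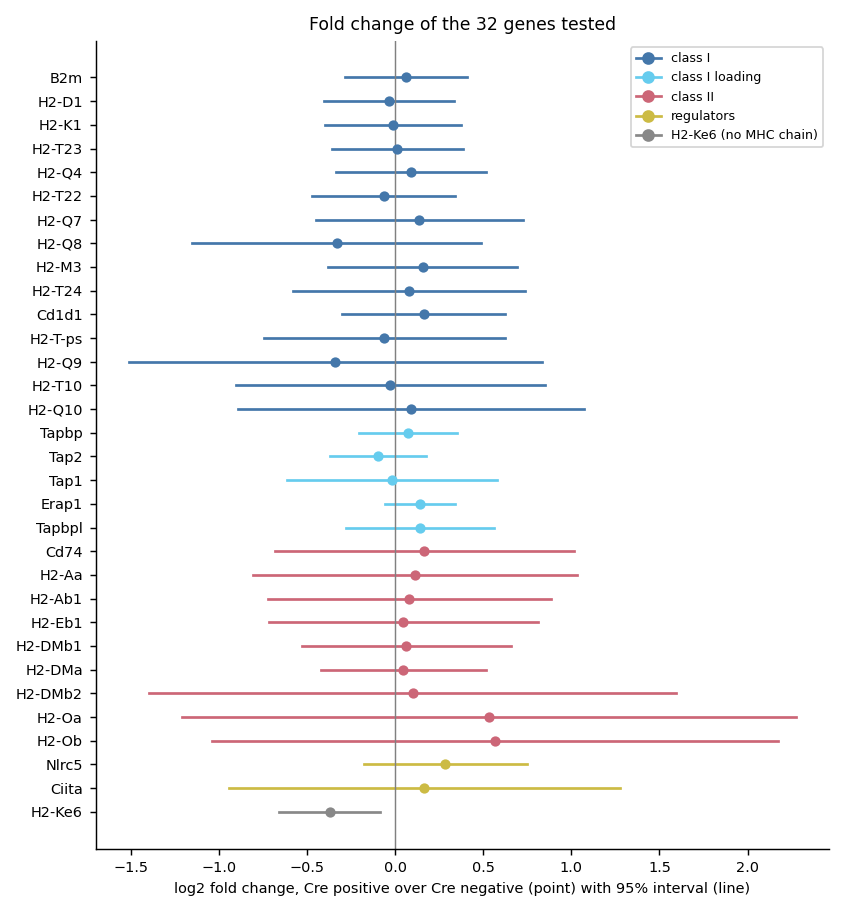
Log2 fold change, Cre positive over Cre negative (x axis), of the 32 genes tested (y axis), coloured by class, with points for edgeR estimates and lines for 95% intervals. All intervals except that of H2-Ke6 include 0, and those of H2-Oa, H2-Ob and H2-DMb2 are the widest.

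No member showed an on/off pattern of the kind that a different MHC haplotype in part of the mice would give. The pattern was defined as 3 counts or fewer in at least 1 ventricle and 30 or more in at least 1 other. It held for 0 of 40 members and for 70 of 17556 genes (0.399%), so a count of 0 does not set the members apart. Members that never reached 30 counts could not meet it: H2-Q10 with at most 29, H2-Eb2 with at most 16 and the class I genes that did not pass the filter. The class II chain H2-Ea has no row in the gene table and was not checked. The nearest member was H2-Oa with 6 to 58 counts. Within the MHC region the pattern held for Mpig6b, a platelet receptor gene 1067 kb from H2-K1 that is no member and did not pass the filter. H2-K1, H2-D1, H2-Aa, H2-Ab1 and H2-Eb1 were all detected in all 6 ventricles, with at least 409 counts in each. Gene counts do not separate alleles, so haplotypes that differ only in sequence were not tested. Of the 70 genes, Gbp2b alone was at 3 counts or fewer in every ventricle of 1 genotype and at 30 or more in every ventricle of the other.

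Across the MHC region of chromosome 17, from Tapbp to H2-M2 (chr17:33919478-37483554, GRCm38.p6), 110 genes were tested. Of these 4 (3.64%) had an unadjusted p below 0.05, against 5.83% of all genes: H2-Ke6, Hspa1b, Flot1 and Mdc1. The other 3 are no members and were named after their values were seen. The median log2 fold change was 0.06 over the 23 members of the region and 0.02 over the 87 other genes.

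**Figure D5:**
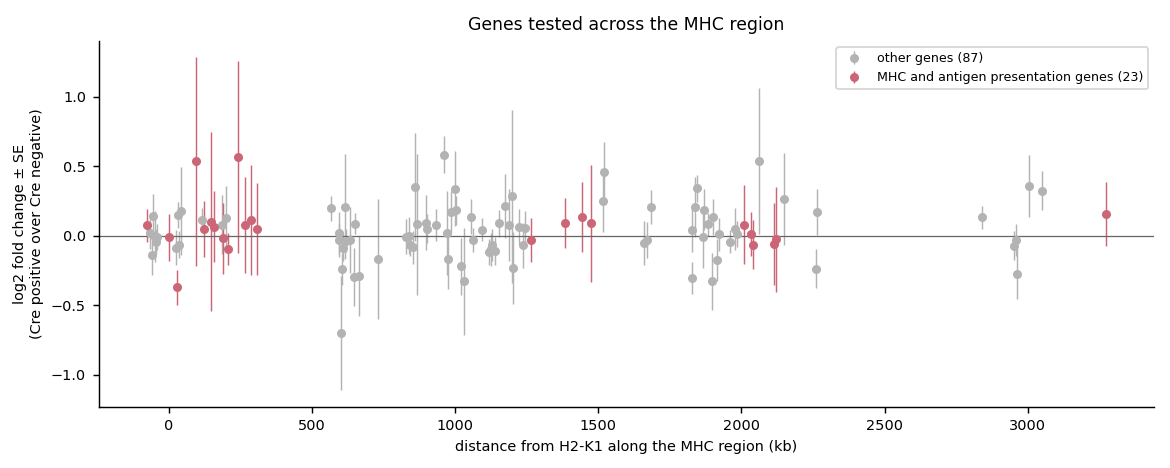
Log2 fold change ± SE, Cre positive over Cre negative (y axis), of the 110 genes tested in the MHC region by distance from H2-K1 in kb (x axis), with members in red and other genes in grey. Members range from H2-Ke6 at -0.37 to H2-Ob at 0.57 and H2-Oa at 0.53, the last pair with wide errors. The remaining members lie between -0.10 and 0.16, and the other genes between -0.70 (Ager) and 0.58 (Hspa1b).

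Genes that act before and after the MHC molecules were counted from lists of the pathway. Of the 5 immunoproteasome and proteasome activator genes, 0 passed an unadjusted p of 0.05, with values from -0.18 (Psmb10) to 0.13 (Psmb8). A list of 5 further genes held Calr, Canx and Pdia3, chaperones of the endoplasmic reticulum, and the endosomal proteases Lnpep and Sppl2a. All 5 had fold changes above 0, against 51.2% of all genes tested, and 1 passed the unadjusted threshold, against 5.83%. Pdia3 and Lnpep were higher without overlap, against 7.55% of all genes tested. The gene that passed was Lnpep, an endosomal aminopeptidase used in cross-presentation, with 388, 350.2 and 374 normalized counts against 469, 509 and 407 (log2 fold change 0.32, SE 0.11, adjusted p = 0.714 in edgeR). Pdia3 and Calr, which take part in the class I loading complex, had 0.30 and 0.22. Of the 8 measured genes for class II processing in endosomes, 0 passed and the values ran from -0.11 (Ctsd) to 0.03 (Cd63). The 12 factors that bind MHC promoters, with Rfx, Nfy and interferon regulatory factors among them, gave 0 calls and values from -0.25 (Rfxank) to 0.19 (Nfya).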

How the data were processed

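Bulk RNA sequencing of 6 left ventricles was analysed, 3 per genotype. The submitters' processing notes name Bowtie2 2.2.5, RSEM 1.2.12 and the GRCm38.p6 build. The authors deposited per gene the estimated counts of RSEM, TPM and FPKM for each ventricle. FPKM values deposited by the authors were not used. A further deposited table of the authors' own comparison (fold change, p and q values) was not used. Estimated counts, of which 11.5% were not whole, were rounded. Genes were kept by edgeR's filterByExpr (minimum count 10, minimum total 15), normalized by TMM and fitted with edgeR 4.0.16 (R 4.3.3, quasi-likelihood, 2 groups of 3, no block), with Benjamini-Hochberg adjustment over the 13817 genes tested. Intervals are 95% intervals of the fitted log2 fold change. TPM served for levels between genes, ratios within a ventricle, sums and the limma alternatives. On simulated counts for this comparison (13817 genes), 74 of 100 genes changed 2-fold, 96 of 100 changed 4-fold and 14 of 13617 unchanged genes were called.

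Members named with a value in every ventricle were those with a mean of at least 50 TPM, an unadjusted p below 0.05, groups that did not overlap or an on/off pattern, the 2 regulators and the classical chains. H2-Oa, H2-Ob, H2-DMb2, Tap1 and H2-Q9 were added after their values were seen. Other pathway genes were counted over whole lists and up to 3 with the largest fold change were named, with Irf7 and Cd79a added after their values were seen. The members and lists were chosen with earlier results of these data known. Alternatives used DESeq2 size factors, upper-quartile factors, the DESeq2 1.42.0 Wald test, no filter, a mean of at least 50 counts, limma 3.58.1 on log2(TPM + 1) or log2(TPM + 0.1), a replicate block, and each ventricle left out. Promoters and gene positions are from RefSeq tables of GRCm38.p6, matched by gene number or symbol. H2-Q8 and H2-Q9 were given no position. Some genes of the lists are not reported here and were left out of their counts and sums. Intervals and floors cover counting and replicate error of these libraries only.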

Additional observations from a re-analysis of the deposited data

How the results depend on the processing

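The count of members with an adjusted p below 0.05 was 0 in edgeR and in all 14 alternatives, DESeq2 and limma included. The count of all genes with an adjusted p below 0.05, 1 with all ventricles and no block, was 0 with the replicate block, 5 with the DESeq2 Wald test, 2 with limma on log2(TPM + 1) and 2 with limma on log2(TPM + 0.1), and 0 to 2 with 1 ventricle left out. Gbp2b lost its call with the block and without Cre-negative ventricle 3 or any one of the Cre-positive ventricles. The count of members with an unadjusted p below 0.05, which was 1, was 0 with limma on log2(TPM + 1), 0 with limma on log2(TPM + 0.1) and 0 to 3 with 1 ventricle left out. The 3 appeared without Cre-negative ventricle 2 and were Tap1, H2-Q4 and Nlrc5. With 1 ventricle left out the class I median ran from -0.099 to 0.24 and the class II median from -0.28 to 0.43. Of 20 named members, 4 (Tapbp, Erap1, H2-Ke6 and Nlrc5) kept their sign in every alternative, although with 1 ventricle left out they ran from 0.0024 to 0.20, from 0.091 to 0.18, from -0.47 to -0.30 and from 0.15 to 0.54. The replicate block gave 0.011 for H2-K1, -0.065 for H2-DMb2 and 0.050 for Tap1, each on the other side of 0 from the value without a block. Same-numbered ventricles had correlations of 0.354, 0.0726 and -0.0318 over their deviations from the group means, so the numbers were not taken to pair the mice, and not every ventricle correlated best with its own number. The median of all genes was 0.11 and 0.12 in the 2 forms of limma on TPM, against 0.01 in edgeR. Limma gave 0.10 for H2-D1, 0.13 for H2-K1, 0.094 for H2-T22 and 0.17 for Tap1 with a pseudocount of 1, and 0.10, 0.13, 0.096 and 0.18 with 0.1. With 1 ventricle left out, values ran for B2m from -0.047 to 0.24, H2-D1 from -0.16 to 0.15, H2-K1 from -0.12 to 0.20, H2-T23 from -0.087 to 0.22, H2-Q4 from -0.042 to 0.34, H2-T22 from -0.20 to 0.18, Cd74 from -0.21 to 0.44, H2-Aa from -0.24 to 0.43, H2-Ab1 from -0.29 to 0.31, H2-Eb1 from -0.28 to 0.22, Ciita from -0.41 to 0.60, H2-Oa from -0.45 to 1.50, H2-Ob from -0.44 to 1.35, H2-DMb2 from -0.89 to 0.68, Tap1 from -0.23 to 0.37, and H2-Q9 from -1.02 to 0.042. H2-Oa, H2-Ob, H2-DMb2 and H2-Q9 gave no value at a mean of at least 50 counts. The cause of these changes was not tested, and each such fit holds 5 ventricles. Depth limits the statements on H2-Oa, H2-Ob, H2-DMb2, H2-Q9, H2-Q10, H2-T10 and the untested genes, where at least 1 ventricle held under 20 counts.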

Other observations

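Class I-like genes outside the H2 complex, which bind iron-transport receptors, lipids or antibodies rather than classical peptides, were also measured. Of 5 genes tested from a list of 8, 4 had fold changes below 0 and 0 passed an unadjusted p of 0.05 in edgeR. Over all genes tested, 51.2% were above 0 and 5.83% passed. Hfe, the regulator of iron uptake, had 1622, 889 and 899 normalized counts in the Cre-negative and 889.7, 809 and 1005 in the Cre-positive ventricles (log2 fold change -0.33, SE 0.23, adjusted p = 0.721). Cre-negative ventricle 1 was the highest of the 6, opposite to its place among the classical class I genes. Procr and Fcgrt had 0.25 and -0.22.

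Costimulatory genes of antigen-presenting cells gave 0 unadjusted calls among 5 tested, against 5.83% of all genes tested. Cd40, the receptor for T cell help, had 54.1, 115 and 87.4 normalized counts against 75.6, 126 and 100.6 (log2 fold change 0.23, SE 0.30). Icosl and Cd274 had 0.19 and 0.15. Cre-negative ventricle 1 was the lowest for Cd40, as for the class II chains.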
